A study of Mus musculus with 6 samples.

Results

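Somatostatin (Sst), the hormone of the islet delta cell, was followed with 9 genes that are used as delta cell markers: Hhex, Rbp4, Cd24a, Arg1, Fam159b, Gap43, Dpp6, Efnb3 and Pdyn. The 10 genes were taken by symbol from a given list, and all 10 were found among the 52542 gene rows of each count table. Their levels were described across wells grouped only by the share of UMIs from Sst, from insulin (Ins1 and Ins2 summed), from glucagon (Gcg) and from pancreatic polypeptide (Ppy). None of the 9 markers was used to group wells.

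Islets were isolated by collagenase from male Sox9-CreER; tdTomato mice and dissociated, and MARS-seq, which tags each captured mRNA with a molecular identifier (UMI) near its 3′ end so that copies of 1 molecule count once, was run on 6 plates. Each plate had 384 wells, and 3 plates came from mice with a partial pancreatectomy (ppx) and 3 from sham-operated mice. All mice carried the same alleles, a tamoxifen-inducible Cre driven by the Sox9 locus and a tdTomato reporter, and all received 8 mg tamoxifen over the weeks before surgery, starting at 10 weeks of age. Surgery took place at 12 weeks and islets were taken 4 weeks later. Replicate 1 of each operation held tomato-positive wells, ppx replicates 2 and 3 and sham replicate 3 held tomato-negative wells, and sham replicate 2 was mixed. Tomato marks descendants of cells in which the Sox9 driver was active at labelling, so it does not by itself separate cell types. The labels assign neither plates to the 6 pancreata nor wells of the mixed plate to a tomato status, so p-values measure the spread between plates, which may be technical.

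Delta cells are the somatostatin-secreting cells of the islet. Somatostatin acts in a paracrine way on neighbouring beta and alpha cells, where it restrains the release of insulin and glucagon through inhibitory receptors. Hhex is a homeodomain factor that mouse delta cells need for their identity. The other markers encode secreted, surface or neural-type proteins and, with Arg1, an enzyme, rather than parts of a single pathway.

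After wells below 500 UMIs or above 20% mitochondrial UMIs were left out, 2115 of 2304 wells remained, with plate medians from 1954.5 to 3929 UMIs per well. Wells with at least 1% Sst, under 3% insulin, under 2% Gcg and under 1% Ppy (Sst-only) numbered 127, and 409 more also had at least 1% Ppy (Sst+Ppy). Wells high in both Sst and insulin (Sst+Ins) numbered 170 and those high in Sst and Gcg (Sst+Gcg) 56. The single-hormone groups held 994 Ins-only, 119 Gcg-only and 63 Ppy-only wells, and 109 wells were hormone-low. The depth differed by group: the median well had 1523 UMIs in Sst-only, 6042 in Sst+Ins and 4248 in Ins-only wells. The tomato-positive plates held 98 of the Sst-only wells and 44 of the Ins-only wells.

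The mouse Sst promoter is printed because its elements are well known from work on how the gene is switched on in islet cells. The gene lies on chromosome 16 at 23889573 to 23890958 on the minus strand of GRCm38. RefSeq gives the promoter window on GRCm38.p6, at chr16:23890795-23891094, minus strand, from 250 bases before the start to 50 after it. Capitals mark, in order, TGATTGAT (a Pbx-type homeodomain element), TAATGG (a homeodomain core) and TGACGTCA (the cAMP response element), which were searched on both strands and do not overlap.
Sst promoter: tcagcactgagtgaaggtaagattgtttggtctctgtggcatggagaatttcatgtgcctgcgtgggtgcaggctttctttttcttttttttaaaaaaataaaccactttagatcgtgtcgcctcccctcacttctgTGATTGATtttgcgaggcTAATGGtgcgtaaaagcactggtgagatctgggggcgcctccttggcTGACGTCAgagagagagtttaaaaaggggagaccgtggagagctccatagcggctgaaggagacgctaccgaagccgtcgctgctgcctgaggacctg
The 3 matches start at -113, -95 and -48 relative to the start. TGACGTCA was found in 1.79% of 32851 mouse promoter windows of the same length, TAATGG in 7.73% and TGATTGAT in 0.746%. A window was given for 6 of the 10 genes, and of the other 5 only Dpp6 held 1 of these motifs, TAATGG. Hhex and Rbp4 lie on the same chromosome, 19, with 675898 bases between them. The match of letters is a description and says nothing of binding in these cells.

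Sst itself defined the wells, so its levels are given as a description. Within Sst-only wells it made up 90778 CPM (UMIs of the gene per 1000000 UMIs of the summed wells) on ppx replicate 1, against 93152, 151328 and 213763 CPM on sham replicates 1 to 3. In Ins-only wells it was still present, at 4213 CPM on ppx replicate 1 and 2669, 697 and 362 CPM on the same sham plates. Outside the Sst-high groups the mean over plates was 1404 CPM in Ins-only, 926 CPM in Ppy-only, 762 CPM in hormone-low and 664 CPM in Gcg-only wells, an order within which the plate ranges overlapped. Wells between 0.5 and 1% Sst were few, and the marker levels on either side of that threshold are given further down.

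**Figure D1:**
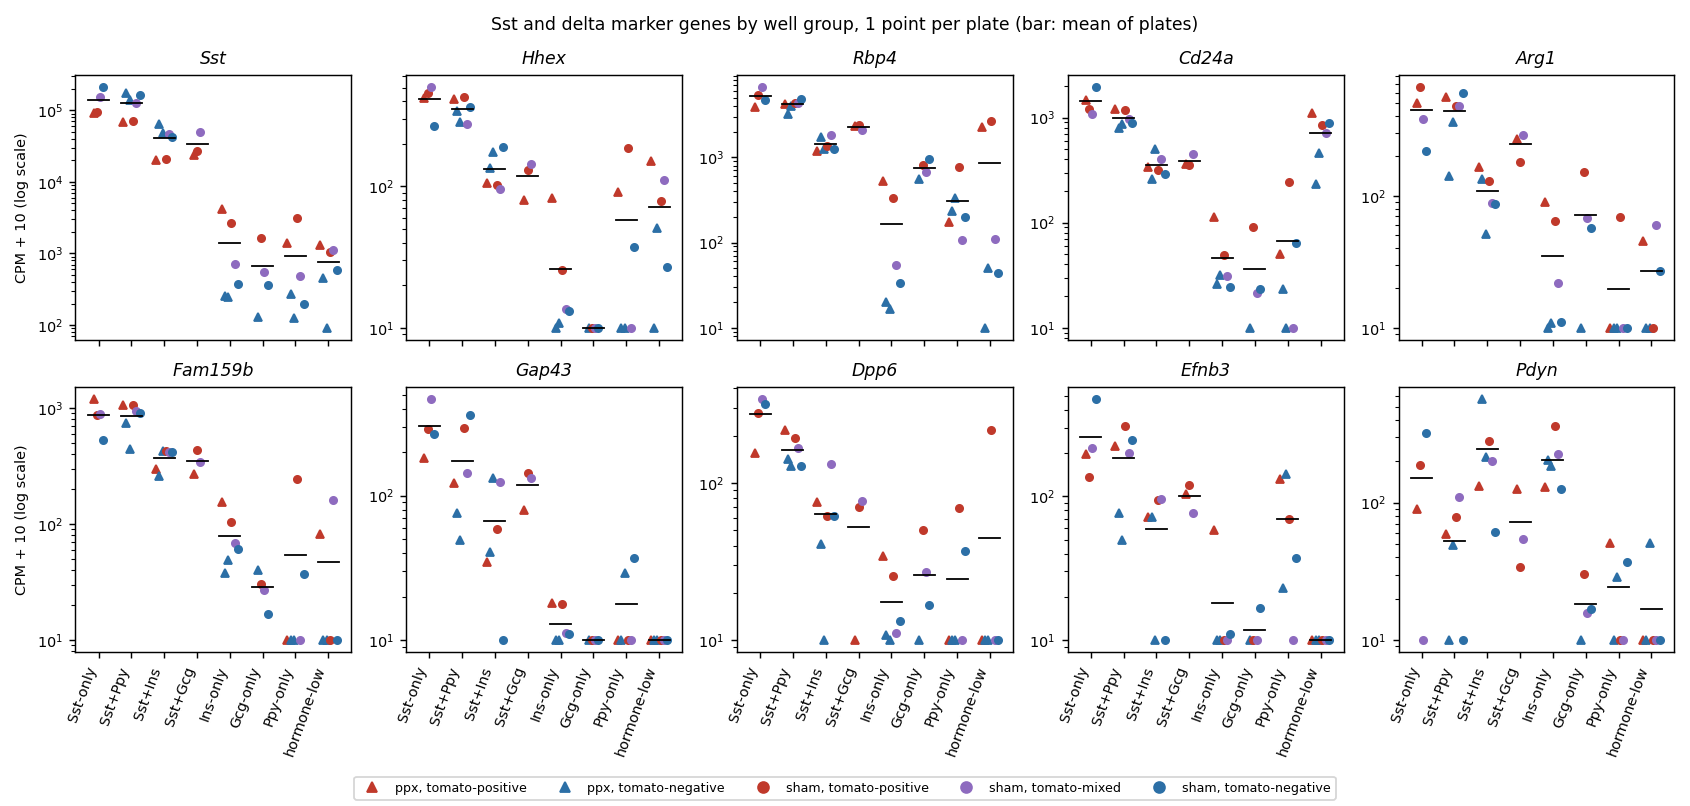
Level of each gene (CPM + 10, log axis) in the summed wells of each well group, with 1 point per plate that had at least 5 wells of the group, colours for tomato status, shapes for operation and a bar at the mean of plates. Hhex, Gap43 and Dpp6 are higher in the 2 left-hand groups than in Ins-only wells on every plate, whereas Pdyn is not.

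The delta specificity of the markers was tested first against beta wells. In Sst-only over Ins-only wells of the same plates, 8 of the 9 markers were higher, where 10.9% of the 1340 genes tested were called higher (edgeR quasi-likelihood test with plate as a block, 4 plates, Benjamini-Hochberg adjusted p under 0.05). Pdyn was the exception. The 8 markers called passed the filter on low counts through their Sst-only wells, whereas Pdyn passed it in its Ins-only wells. The count of 8 was therefore largely set by the filter. With hormone thresholds halved 4 markers passed the filter on low counts and all 4 were higher, and with a mitochondrial maximum of 10% 4 of 5 were. The median log2 difference was 5.10 over the 9 markers and -0.03 over all genes tested.

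Hhex had 412 CPM in Sst-only wells of ppx replicate 1 and 445, 499 and 258 CPM in those of sham replicates 1 to 3. In Ins-only wells the same plates gave 72.2, 15.6, 3.55 and 3.15 CPM. The groups did not overlap, and the log2 difference was 4.60 ± 0.59 (SE, edgeR adjusted p = 3.7e-06). Rbp4, which encodes the plasma carrier of retinol, was the most abundant marker. It had 3825, 5425, 6731 and 4643 CPM in Sst-only wells of these plates in the same order, against 514, 327, 45.0 and 23.1 CPM in Ins-only wells. The Ins-only values fell into a higher pair on the tomato-positive plates and a lower pair on the others, which is taken up again under the tomato comparison. Its log2 difference was 5.10 ± 0.54.

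Cd24a, a surface glycoprotein, had 1448, 1207, 1080 and 1960 CPM in Sst-only wells, against 104, 38.9, 21.3 and 14.7 CPM in Ins-only wells (log2 difference 5.36 ± 0.35). Fam159b, annotated as Shisal2b in GENCODE, had 1182, 851, 873 and 516 CPM against 144, 93.4, 59.2 and 51.4 CPM (3.13 ± 0.24). Arg1, an enzyme of the urea cycle, had 491, 661, 374 and 206 CPM in Sst-only wells and 80.2, 54.5, 11.8 and 1.05 CPM in Ins-only wells (3.65 ± 0.48). For all 3 genes every plate was higher in Sst-only wells. Of the 8 markers called, Fam159b had the smallest difference, and Ins-only wells held it on every plate.

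The markers of neural type were less abundant, with few UMIs outside the Sst wells. Gap43, a growth-cone protein, was counted 51 times in Sst-only wells of these 4 plates and 4 times in Ins-only wells, although the Ins-only sums held 2051268 UMIs and the Sst-only sums 197457. The ratio of summed UMIs was 132-fold, with an exact 95% interval for counting error of 48.7 to 505, and edgeR gave a log2 difference of 6.78 ± 0.72. Efnb3, a membrane-bound ephrin, had 38 UMIs in Sst-only and 7 in Ins-only wells, a ratio of 56.4 (24.9 to 149.7), with a log2 difference of 5.45 ± 0.99. Of those 7, 6 came from ppx replicate 1. Dpp6, an auxiliary subunit of A-type potassium channels, had 146, 267, 332 and 309.5 CPM in Sst-only wells, against 24.1, 15.6, 1.18 and 3.15 CPM in Ins-only wells (5.32 ± 0.76).

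Pdyn, the precursor of the dynorphin opioid peptides, was the marker with no call. It averaged 142 ± 133 CPM in Sst-only wells (SD, n = 4 plates) and 196 ± 85.7 CPM in Ins-only wells (n = 6), and the plates overlapped. Sst-only wells had 79.7 CPM on ppx replicate 1 and 178, 0 and 309.5 CPM on sham replicates 1 to 3, from 26 UMIs in all. The log2 difference was -0.94 ± 0.43, which was not called (edgeR adjusted p = 0.13). It was called lower with wells grouped without regard to Ppy (-1.46, 6 plates, edgeR adjusted p = 2.7e-06) and without sham replicate 3 (-1.45). Gcg-only and Ppy-only wells held 3 Pdyn UMIs each.

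Against alpha wells, 7 of the 9 markers could be tested and all 7 were higher in Sst-only wells (3 sham plates, edgeR), where 10.4% of genes were called higher. Efnb3 and Pdyn were below the filter on low counts. Hhex, Gap43, Cd24a, Fam159b and Dpp6 were absent or sparse in the Gcg-only wells. These genes and Arg1 passed the filter through their Sst-only wells. The count of 7 was therefore largely set by the filter. Of the 9 markers, Rbp4 had the highest level in alpha wells: it had 5425, 6731 and 4643 CPM in Sst-only wells of sham replicates 1 to 3, against 807, 656 and 950 CPM in their Gcg-only wells (log2 difference 2.75 ± 0.16). Arg1 had the smallest difference of the 7 (2.24 ± 0.41), with 61.5 ± 58.8 CPM in Gcg-only wells over 4 plates. On the 3 sham plates Hhex and Gap43 had no UMI in Gcg-only wells, so Sst-only wells were at least 52.7-fold and at least 38.5-fold higher, set against 3 UMIs over the summed Gcg-only wells of those plates. Of all 119 Gcg-only wells, 0.840% (1 well) had a Hhex UMI. Cd24a (5.85 ± 0.44), Fam159b (5.52 ± 0.48) and Dpp6 (3.98 ± 0.72) were higher as well.

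Against Ppy-only wells, 3 markers passed the filter and all 3 were higher, with 6.90% of 174 genes called higher and 7.47% lower (4 plates). Rbp4 differed by 3.90 ± 0.28, Cd24a by 4.00 ± 0.41 and Fam159b by 3.57 ± 0.51 on the log2 scale. The other 6 markers were too sparse in these few wells. Rbp4, Cd24a and Fam159b passed the filter through their Sst-only wells, so the count of 3 was largely set by it. Efnb3 was listed at 122 CPM in Ppy-only wells of ppx replicate 1 and 133 CPM in those of ppx replicate 3, from 3 and 7 UMIs. The hormone-low wells, which no hormone marks, held Cd24a at 699.7 ± 317 CPM (n = 6 plates), while Gap43 and Efnb3 had no UMI in their 109 wells, which allows up to 19.4 CPM. Rbp4 in hormone-low wells reached 2244 CPM on ppx replicate 1 and 2638 CPM on sham replicate 1, the tomato-positive plates, against at most 100.4 CPM on each of the other 4 plates. These wells numbered 12 and 8 on the positive plates, and held more Rbp4 than Sst (63 against 37 UMIs, and 38 against 15).

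To set the groups side by side at 1 depth, the share of wells with a UMI was computed after thinning each well to 1000 UMIs. Rbp4 was then seen in 97.1% of Sst-only and 2.87% of Ins-only wells (unthinned 97.6% and 9.15%), at median depths of 1523 and 4248 UMIs. Rbp4 was also seen in 51.4% of Gcg-only wells. Cd24a was seen in 66.4% of Sst-only wells, Fam159b in 56.3%, Arg1 in 37.2% and Hhex in 32.7%, against 2.05%, 4.44%, 0.470% and 0.277% of Ins-only wells. In the 740 Ins-only wells of tomato-negative plates with under 0.1% Sst, 128 UMIs of Fam159b and 59 of Cd24a stood beside 783 of Sst. The Sst-only wells of the 4 plates had 187 of Fam159b and 268 of Cd24a beside 21953 of Sst. Pdyn was seen in 11.9% of Sst-only wells and 11.1% of Ins-only wells. An Sst-only well showed a mean of 3.58 of the 9 markers and an Ins-only well 0.216. At that depth 0.0810% of Sst-only wells showed no marker, against 80.7% of Ins-only wells.

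No marker was called between wells with and without Ppy. In Sst+Ppy over Sst-only wells, 0 of 8 markers tested was called (4 plates, edgeR; 0.205% of 976 genes were called higher and 0.102% lower), 0 of the 8 had an unadjusted p under 0.05 and DESeq2 also called 0. Their median log2 difference was -0.11. Sst and Ppy shares chose these wells, so the log2 difference of Sst, -0.30, is a description with no test. A Sst+Ppy well showed a mean of 3.54 of the 9 markers at 1000 UMIs. Since the Ppy share chose the group, the larger set that ignores Ppy (536 wells, called Sst wells below) was added after the data had been seen. It has wells on all 6 plates.

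Within Sst wells, markers were compared between wells above and below the plate's median Sst share on 3 plates, as CPM of the UMIs other than Sst. Hhex, Rbp4, Cd24a, Arg1 and Pdyn were higher in the upper wells on each plate. Fam159b, Gap43, Dpp6 and Efnb3 were not. On ppx replicate 1 and sham replicates 1 and 2 the ratio of the upper to the lower wells was 1.37, 1.23 and 1.48 for Hhex, 1.501, 1.12 and 1.19 for Rbp4 and 1.39, 1.27 and 1.47 for Cd24a. Well by well the relation was weak. Over 223 Sst wells of ppx replicate 1, 211 of sham replicate 1 and 63 of sham replicate 2, Spearman's rho between the Sst share and a marker's share of the other UMIs lay between -0.21 and 0.35 for the 9 markers. These wells share a library within a plate, and 6 of the 9 markers were seen in at most 55.6% of them. Rbp4 had rho values of 0.23, 0.036 and 0.18 on these plates, and Hhex had -0.032, 0.039 and 0.18. The ratio of upper to lower wells was 2.18 and 2.05 for Dpp6 on ppx replicate 1 and sham replicate 1, but 0.884 on sham replicate 2. Pdyn had 29 UMIs above that median and 5 below it on sham replicate 1, 12 and 10 on ppx replicate 1, and 6 and 3 on sham replicate 2. These ratios and counts carry no test.

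Across the 41 sums of a plate and well group with enough wells, the profiles of 6 markers were among the 10 most like that of Sst of 7809 genes with at least 100 UMIs. The measure was Pearson's r of log2(CPM + 10), and the sums of a plate share its library. The Sst share helped to define the groups, so a gene higher in the Sst groups ranks high by construction. The ranks are a description and add no support to the differences above. Fam159b came first (r = 0.905), followed by Arg1 (0.890) and Hhex (0.869), and Gap43, Rbp4 and Dpp6 were at ranks 6, 8 and 10. Cd24a was at rank 16 and Efnb3 at rank 22, whereas Pdyn was at rank 790 (r = 0.307). The 4 genes in the first 10 that are not markers here were Nnat (0.865), Mest (0.842), Ly6h (0.820) and Cfap61 (0.786). Mest averaged 191 ± 91.0 CPM in Sst-only wells and 5.41 ± 8.06 CPM in Ins-only wells (SD, n = 4 and 6 plates), and Ly6h 102 ± 46.0 against 1.34 ± 3.28 CPM.

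Of 26 further genes named in work on delta cells, 7 passed the filter in Sst-only over Ins-only wells, and 2 were higher and 1 lower. Mest rose by 5.16 ± 0.87 on the log2 scale and Pax6, an islet homeodomain factor, by 0.71 ± 0.25 (edgeR adjusted p = 0.047), while Hadh, a mitochondrial dehydrogenase, was lower (-0.83 ± 0.19). The ghrelin receptor Ghsr was below the filter with 20 UMIs in Sst-only and 2 in Ins-only wells, and the lipid receptor Ffar4 with 18 and 2. Of the 5 somatostatin receptors, only Sstr3 was tested, at 113 ± 40.1 CPM in Sst-only and 157 ± 27.3 CPM in Ins-only wells (log2 difference -0.76 ± 0.38, edgeR adjusted p = 0.17), and Sstr2, Sstr4 and Sstr5 had no UMI in either group. Among 6 tested genes of prohormone processing, the convertase Pcsk1 fell by 1.93 ± 0.24 and the carboxypeptidase Cpe by 0.72 ± 0.17, and Pcsk2, the convertase used for somatostatin and glucagon, was at -0.08 ± 0.15. Ttr, the partner of Rbp4 in plasma, was lower in Sst-only wells (-2.23 ± 0.20). Of the opioid list only Pdyn passed the filter.

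Other cell types were counted in Sst wells as well. The summed level of 8 beta markers lay between 15502 and 27606 CPM in Sst wells and between 222983 and 338399 CPM in insulin wells with any Ppy over the 6 plates. All 8 were lower in Sst-only over Ins-only wells, Ins1 and Ins2 by choice of the wells. Duct markers summed to 997 to 1732 CPM in Sst wells and 422 to 611 CPM in these insulin wells, with Krt19 at 0 UMIs in both. Of 4 duct markers tested in Sst-only over Ins-only wells, 1 was called higher and 1 lower, with a median log2 difference of 0.21. Clu among them was higher by 3.39 ± 0.22. Of 5 acinar markers, 4 had no UMI in Sst wells, and endothelial, stromal and macrophage markers summed to at most 110.0 CPM each on any plate. Pyy, a peptide gene of gamma cells, was higher in Sst-only wells by 4.98 ± 0.39. The part of these cell types in the marker differences was not tested.

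In the joined wells that held both Sst and insulin, the markers were present. In Sst+Ins over Ins-only wells 5 of 6 markers tested were higher, where 1.24% of 3456 genes were called higher (6 plates, edgeR). Gap43, Dpp6 and Efnb3 were below the filter on low counts. The 5 markers called passed it through the Sst+Ins wells, where they were higher, so the count of 5 was largely set by the filter. Hhex had 96.5, 124 and 165 CPM in Sst+Ins wells of the ppx plates, against 72.2, 0 and 0.819 CPM in their Ins-only wells. On the sham plates it had 92.3, 85.5 and 179 CPM against 15.6, 3.55 and 3.15 CPM. The Sst+Ins value was higher on each of 6 plates, and the log2 difference was 3.92 ± 0.60. Rbp4 differed by 4.26 ± 0.36, Cd24a by 3.62 ± 0.28, Fam159b by 2.48 ± 0.23 and Arg1 by 2.19 ± 0.47 (edgeR adjusted p = 0.0021). DESeq2 called 3 of these 5. Arg1 was no longer called without sham replicate 2. Pdyn had a log2 difference of 0.01 ± 0.20, which was not called, at 234 ± 176 CPM in Sst+Ins wells.

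As a share of UMIs the markers were lower in Sst+Ins than in Sst-only wells. Of 8 tested, 7 were called lower, where 9.64% of 892 genes were called lower (4 plates, edgeR), and they fell by 1.13 (Fam159b) to 2.29 (Gap43) on the log2 scale. Rbp4 fell by 1.66 ± 0.12 and Hhex by 1.84 ± 0.27. Hhex, Arg1, Gap43 and Dpp6 passed the filter on low counts through their Sst-only wells, where they were higher. Pdyn was at 0.75 ± 0.34 (edgeR adjusted p = 0.092). A Sst+Ins well held 6042 UMIs at the median, against 1523 in a Sst-only well.

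Counted per well, the Sst+Ins wells came near the sum of single wells. On the 4 plates with all 3 groups, a Sst+Ins well had 0.904 ± 0.054 times the UMIs of a Sst-only and an Ins-only well added together (SD). Rbp4 had 7.99, 8.95, 9.73 and 8.00 UMIs per Sst+Ins well on ppx replicate 1 and sham replicates 1 to 3, against sums of 9.31, 9.97, 11.8 and 9.11 UMIs. The ratio was 0.865 ± 0.031, below 1 on all 4 plates. The spread was wider at other settings. Rbp4 gave 0.814 ± 0.249 with thresholds halved (up to 1.06) and 0.818 ± 0.168 with thresholds doubled (up to 1.07). Without regard to Ppy it gave 0.928 ± 0.347 (0.487 to 1.51). Sst gave 0.821 ± 0.123, also below 1 on each plate, and Fam159b 1.39 ± 0.59, above 1 on 3 of them. Pdyn gave 0.773 ± 0.346. Hhex, Arg1, Cd24a, Dpp6 and Efnb3 had means between 0.818 and 1.24 with plates on both sides of 1, and Gap43 was below 1 on every plate at 0.495 ± 0.349. At other settings Sst reached 1.15 (thresholds doubled) and Gap43 reached 1.66 (without regard to Ppy), so neither stayed below 1.

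**Figure D2:**
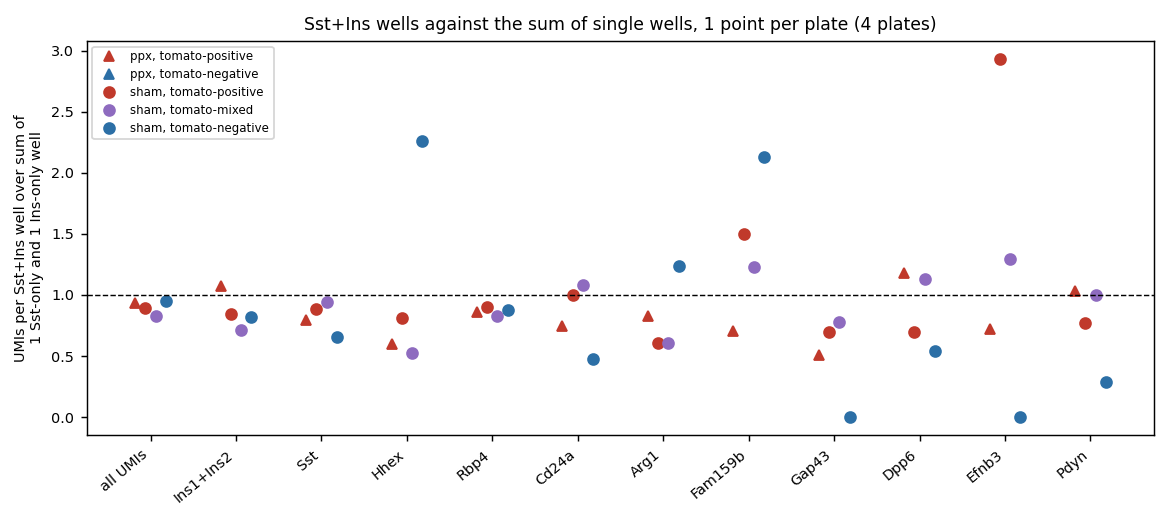
UMIs of each gene per Sst+Ins well, divided by the sum of the mean UMIs of a Sst-only and an Ins-only well of the same plate, 1 point per plate for 4 plates with a dashed line at 1. At the main thresholds shown, Rbp4 (0.826 to 0.898) and all UMIs (0.831 to 0.953) are tight, and the sparse markers scatter from 0 to 2.93.

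Wells high in Sst and Gcg also carried the markers. In Sst+Gcg over Gcg-only wells 5 of 6 markers tested were higher, with 0.903% of 1772 genes called higher and 0.0564% lower (2 sham plates, edgeR), and DESeq2 called 2. Rbp4 had 2404 and 2058 CPM in Sst+Gcg wells of sham replicates 1 and 2, against 807 and 656 CPM in their Gcg-only wells (log2 difference 1.54 ± 0.17). Cd24a differed by 3.71 ± 0.51 and Fam159b by 4.15 ± 0.48. Hhex and Gap43 were at least 9.35-fold and at least 9.65-fold higher, with no UMI in the Gcg-only wells of these plates. Hhex, Gap43, Cd24a and Fam159b passed the filter on low counts only through the Sst+Gcg wells, so their calls were largely set by it. Arg1 was at 1.41 ± 0.46 and was not called (edgeR adjusted p = 0.24).

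The markers at the 1% threshold were compared by bins of Sst. In insulin-high wells pooled over all plates, Rbp4 was at 887 CPM in the 16 wells from 0.5 to 1% Sst and at 1109 CPM in the 73 wells from 1 to 2%, so the values just outside and just inside the threshold were close. The 900 wells under 0.1% Sst had 23.4 CPM, and the 94 wells from 0.1 to 0.5% had 83.4 CPM. In insulin-low wells Rbp4 was at 3175 CPM from 2 to 5% Sst, 4584 from 5 to 10% and 4955 from 10 to 20%. Of the 16 insulin-high wells just below the threshold, 15 were on tomato-positive plates. Plates are unevenly spread over the bins, so the steps carry no test.

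**Figure D3:**
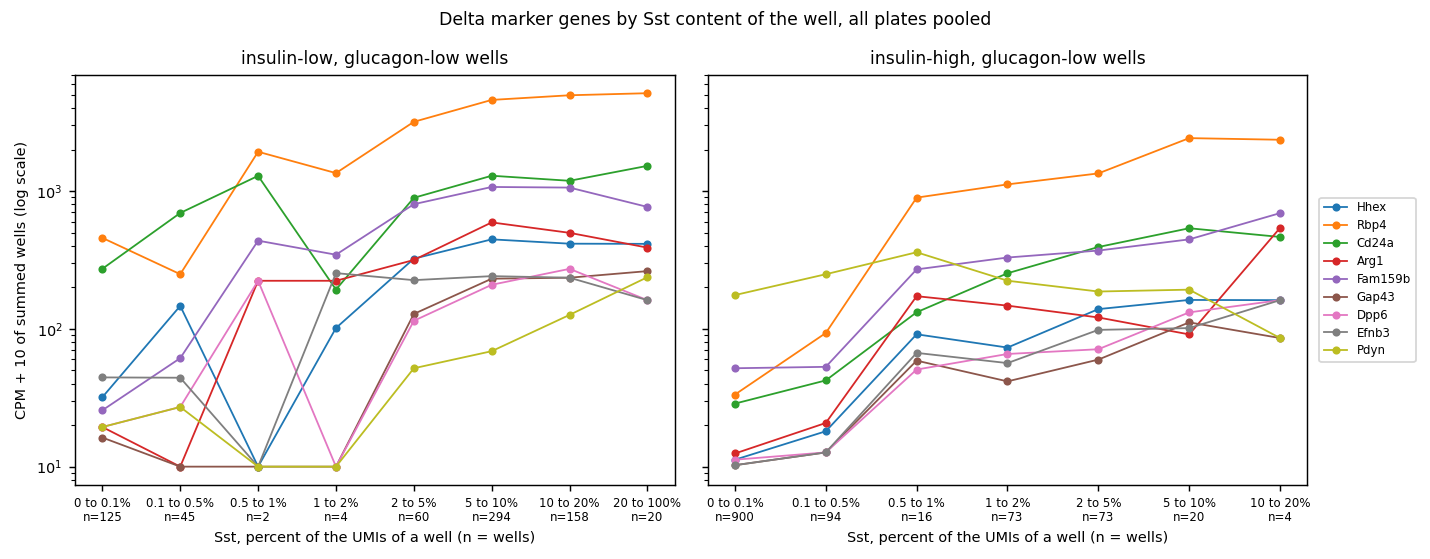
Level of the 9 markers (CPM + 10, log axis) in wells summed by their Sst share, for insulin-low wells on the left and insulin-high wells on the right, with the number of wells under each bin. In insulin-high wells Rbp4 is at 887 CPM from 0.5 to 1% Sst, against 23.4 CPM under 0.1%.

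The share of Sst-high wells depended on the plate. It was 84.6% (95% exact interval 80.4 to 88.1) on ppx replicate 1 and 84.5% (80.3 to 88.1) on sham replicate 1, the tomato-positive plates. The mixed plate had 29.5% and the tomato-negative plates had 4.97%, 5.14% and 8.55%. Tomato-positive plates averaged 84.5% ± 0.031 and tomato-negative plates 6.22% ± 2.02 (SD, n = 2 and 3), a difference of 78.3 points (exact two-sided permutation p = 0.1, the smallest that 2 against 3 plates allow). By operation the shares were 31.6% ± 45.9 on ppx and 40.8% ± 39.2 on sham plates, so that ppx minus sham was -9.29 points (two-sided p = 0.6 by exact permutation over 3 plates each, smallest possible 0.1). That difference was 12.5 points without sham replicate 1, 4.01 and 3.92 without ppx replicates 2 and 3, and -35.8 without ppx replicate 1.

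Sst itself was also less concentrated in Sst wells of the tomato-positive plates. It had 73156 CPM on ppx replicate 1 and 76297 CPM on sham replicate 1, against 177358, 160124 and 191206 CPM on ppx replicates 2 and 3 and sham replicate 3, with the mixed plate at 131871 CPM. Positive and negative plates did not overlap. Sst took 7.78% and 7.70% of the median Sst well on positive plates, against 18.5%, 20.5% and 18.5% on negative ones. The Sst share chose these wells, so the log2 difference of -1.42 over 5 plates is a description with no test. Without ppx replicates 1, 2 and 3 the difference was -1.39, -1.33 and -1.21, and without sham replicates 1 and 3 it was -1.35 and -1.16. The negative plates held 9, 11 and 19 Sst wells. The comparison planned for Sst-only wells could not be fitted, with too few negative plates.

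No marker was called in this comparison. Of the 6 markers tested 0 were called (edgeR with the operation as covariate, 2 against 3 plates; 0 at an unadjusted p under 0.05, and none by DESeq2). Of 386 genes 0.259% were called lower and 0% higher, the 1 gene being Sst itself. In Sst wells Rbp4 had 4129 and 4578 CPM where the plate was positive, against 3279, 4079 and 4702 CPM where it was negative (log2 difference -0.10 ± 0.27). Per 100 Sst UMIs this came to 5.64 and 6.00 Rbp4 UMIs for positive, against 1.85, 2.55 and 2.46 for negative plates, which did not overlap. Ppy in the same wells was at 60460 and 43983 CPM on the positive plates, against 54191, 119874 and 19030 CPM on the negative plates. The median mitochondrial share was 13.3% and 11.3% on positive plates, against 10.9%, 12.2% and 10.95% on negative ones. Over all kept wells the positive plates had medians of 1954.5 and 2119 UMIs per well. In Sst-only wells the median was 1456 UMIs on positive and 2053 on negative plates, and in Sst+Ppy wells 1562 and 1913.5. The part of Ppy, of the mitochondrial share and of depth was not tested.

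**Figure D4:**
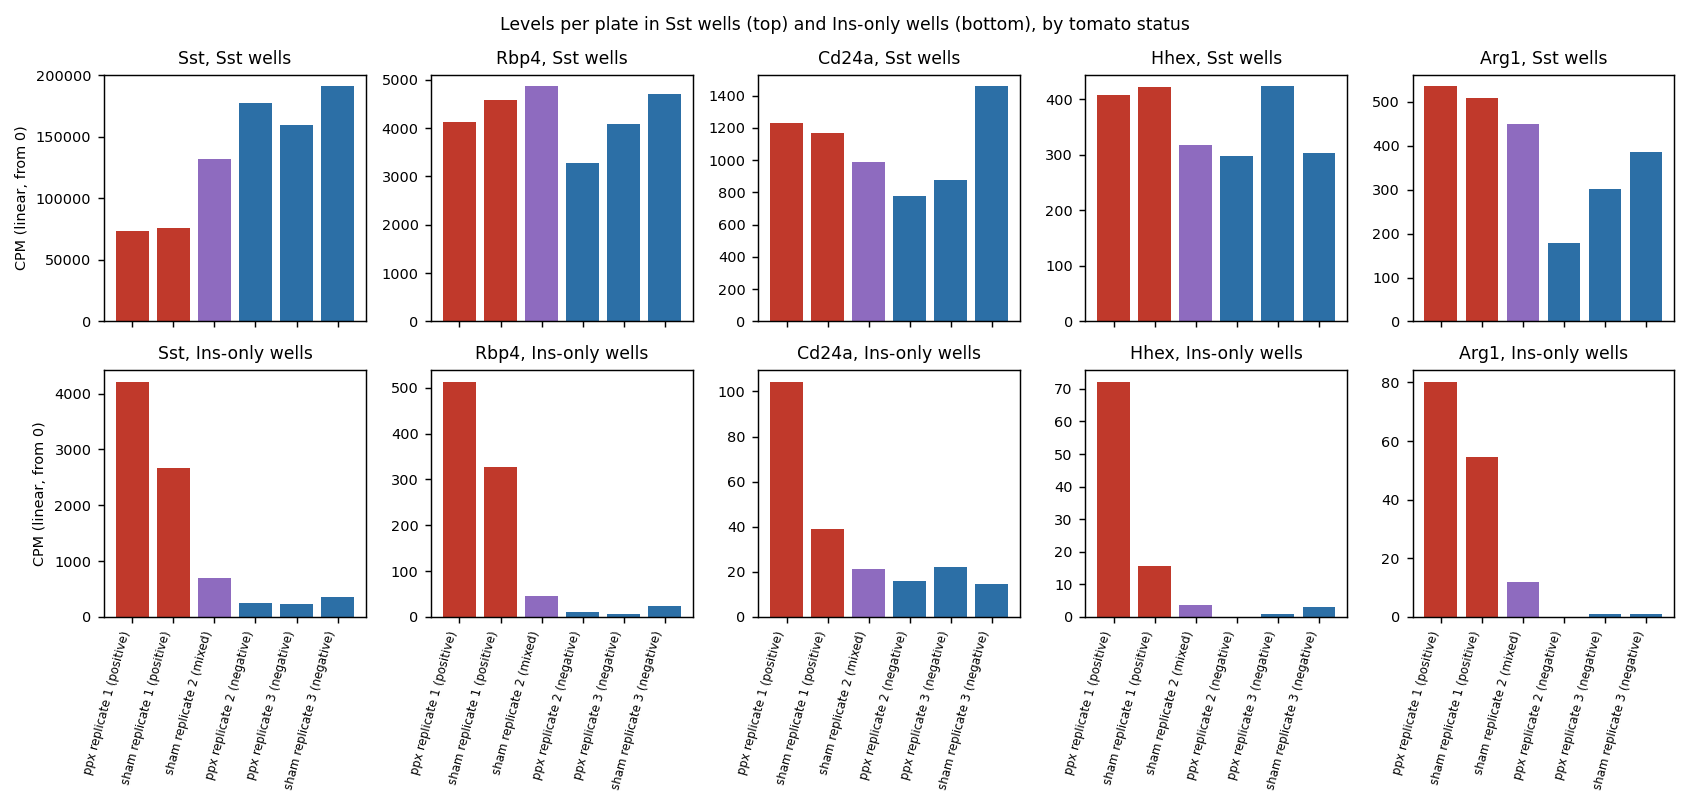
CPM (linear, bars from 0) of Sst, Rbp4, Cd24a, Hhex and Arg1 in summed Sst wells (top) and Ins-only wells (bottom) of each plate, tomato-positive plates on the left, then the mixed plate, then tomato-negative plates. Sst is lower in Sst wells of the positive plates, and in Ins-only wells Sst, Rbp4, Hhex and Arg1 are higher there.

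In Ins-only wells, Rbp4, Arg1 and Hhex were higher on tomato-positive plates. These were 3 of 6 markers tested, where 8 of 8765 genes (0.0913%) were called higher (edgeR with operation as covariate, 2 against 3 plates). All 3 markers, Rbp4 included, passed the filter on low counts through the positive plates, where they were high. The 3 of 6 is therefore no independent support. Sst stood at 4213 and 2669 CPM with the positive sort, against 249, 234 and 362 CPM with the negative sort, a log2 difference of 3.74. That is a description with no test, since the wells were chosen at under 1% Sst. Rbp4 had 514 and 327 CPM against 10.1, 6.55 and 23.1 CPM, a log2 difference of 5.16 ± 0.33. Arg1 was counted 17 times in 253156 UMIs on the positive plates and 2 times in 3359569 UMIs on the negative ones, a ratio of 113 (exact interval 26.8 to 1007), and Hhex 11 and 4 times, a ratio of 36.5 (10.8 to 157). Hhex was just past the threshold (edgeR adjusted p = 0.049). Cd24a differed by 2.25 ± 0.49 and Fam159b by 1.66 ± 0.38 and neither was called (adjusted p = 0.060 and 0.072), and Pdyn was at 0.70 ± 0.29.

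The other 5 genes called were Sst and the ghrelin gene Ghrl, with Pyy, Ppy and Ins2, of which Sst, Ppy and Ins2 were used to choose the wells. Each positive plate had 22 Ins-only wells, against 287, 291 and 195 for the negative plates, and 11 of the 44 had 0.5 to 1% Sst. Those 11 held Rbp4 at 897 CPM, while the 21 wells from 0.1 to 0.5% Sst held 180.3 CPM and the 12 wells under 0.1% held 138 CPM (9 UMIs). On the negative plates the 740 wells under 0.1% Sst held 12.2 CPM. Most Arg1 and Hhex UMIs of the positive plates also lay just below the 1% threshold. Arg1 had 15 UMIs and Hhex 10 from 0.5 to 1% Sst, 2 and 1 from 0.1 to 0.5%, and 0 of each under 0.1%. Per 100 Sst UMIs, Ins-only wells held 12.2 Rbp4 UMIs on each positive plate, against 4.07, 2.80 and 6.38 on negative ones. In the Sst wells of the positive plates this ratio was 5.64 and 6.00. With the hormone thresholds halved 2 members were called, Sst and Rbp4, and with the thresholds doubled 9 were. Arg1 and Hhex were below the filter on low counts with thresholds halved and with a mitochondrial maximum of 10%, and with no filter they were not called.

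No member was called by operation. In Sst wells of 3 ppx and 3 sham plates 0 of 9 members tested was called (edgeR; 0.110% of 906 genes were called higher and 0% lower), 1 had an unadjusted p under 0.05 and DESeq2 called 0. Sst, which chose the wells, had a log2 difference of 0.13. Gap43, the member with the smallest p, had 124, 59.6 and 181 CPM on ppx plates, against 283, 202 and 302 CPM on sham plates, which did not overlap (log2 difference -1.03 ± 0.29, edgeR adjusted p = 0.37). It rests on 1 and 6 UMIs on ppx replicates 2 and 3. In Sst-only wells, with 1 ppx plate against 3 sham plates, 0 of 10 members were called (0.274% of genes higher, 0% lower), with 2 at an unadjusted p under 0.05 and 0 by DESeq2. That lone ppx plate is assumed to vary like the sham plates, so this fit says little about the operation.

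In Ins-only wells the ppx plates also showed no call: 0 of 6 members tested (0.208% of 8154 genes were called higher and 0.0736% lower), with 0 at an unadjusted p under 0.05 and 0 by DESeq2. Rbp4 was at -0.53 ± 0.89 on the log2 scale (SE), and Sst, which chose the wells, at 0.34. These values turned with single plates and thresholds. With hormone thresholds halved 2 members were called lower, Rbp4 at -2.22 (edgeR adjusted p = 0.00033) and Sst at -1.23. Without ppx replicate 1, which leaves no tomato-positive ppx plate, the same 2 were called lower, Rbp4 at -2.98 (edgeR adjusted p = 0.023) and Sst at -2.23. Without sham replicate 1 Rbp4 was at 0.39 and Sst at 1.44, and neither was called. Each operation had 1 positive plate, and those plates had the higher Sst and Rbp4 levels in these wells. On the tomato-positive plates Sst was 4213 CPM after ppx and 2669 CPM after sham, and on the negative plates it was 249 and 234 CPM after ppx and 362 CPM after sham.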

How the data were processed

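Per the labels' protocols, single islet cells were sorted into plates and sequenced by MARS-seq. The deposited tables hold raw UMI counts per gene and well, with no normalisation by the authors. Alignment used HISAT 0.1.6 on mm10, per the submitters' processing notes. How UMIs were counted, and on which annotation, is not stated. The 92 ERCC rows held 3 UMIs and were left out. No doublet caller was run, since joined wells are a subject of the study. No well names were shared between plates. The design states 2300 cells and the files hold 2304 wells.

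CPM is the UMIs of a gene per 1000000 UMIs of summed wells. Sums of at least 5 wells per plate were fitted over all genes with edgeR 4.0.16 (TMM, filterByExpr, quasi-likelihood), and DESeq2 1.42.0 was an alternative. The filter and fit were tested on simulated data. Shares at 1000 UMIs are expectations of sampling without replacement. Intervals at 95% are exact Clopper-Pearson and, like the floor of 3 UMIs, cover counting error only. Members, lists and well groups were chosen with earlier results of these data known. The text names the 10 members, the 10 genes most like Sst and list genes past the threshold, and a few list genes beyond that rule. Replicate numbers did not pair plates (correlations of deviations 0.022 to 0.027 in Ins-only wells and -0.0097 to 0.11 in Sst wells). Positions are from GENCODE on GRCm38.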

Additional observations from a re-analysis of the deposited data

Results flagged for a closer look

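The difference between Sst and Ins wells itself differed between tomato-positive and tomato-negative plates for 3 markers, in an edgeR interaction test over 5 plates with wells grouped without regard to Ppy (0.0901% of 5549 genes were called). On the log2 scale, positive minus negative, it came to -4.64 for Rbp4, -5.55 for Arg1 and -4.36 for Hhex, so that the gap between Sst and Ins wells was smaller on positive plates. For Sst, whose share chose the wells, the value was -4.88 and is a description with no test. The 3 markers are those called higher in Ins-only wells of the positive plates, and the test draws on largely the same wells, so it adds no separate support. By operation the same test gave -5.62 ± 1.30 for Efnb3 (edgeR adjusted p = 0.043, 6 plates), ppx minus sham, a smaller fitted gap on ppx plates. In Ins-only wells Efnb3 had 6 UMIs on ppx replicate 1 and 0 on ppx replicates 2 and 3, against 0, 0 and 1 on the sham plates. Those 6 UMIs lay in wells from 0.5 to 1% Sst of a tomato-positive plate. Sst wells of ppx replicates 2 and 3 held 1 and 2 Efnb3 UMIs. The value thus rests on few UMIs, and says little about the ppx plates in general.

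The wells with fewer than 500 UMIs, which no comparison used, held Sst on 5 of 6 plates above the limit that a count of 0 allows. Sst took 2.70% of their UMIs on ppx replicate 1 and 2.72% on sham replicate 1, the tomato-positive plates, against 0.184% on ppx replicate 2, 0.493% on sham replicate 2 and 0.216% on sham replicate 3. Over all wells of a plate Sst took 3.45% on ppx replicate 1 and 3.43% on sham replicate 1. Rbp4 took 0.449% (4 UMIs) on ppx replicate 1 and 0.340% (7 UMIs) on sham replicate 1. On ppx replicate 3, 0 of 863 UMIs were Sst, which allows up to 0.348%. The cause was not tested.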

How the results depend on the processing

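Of the markers higher in Sst-only over Ins-only wells, 4 were called with thresholds halved and 4 with a mitochondrial maximum of 10%, and 1 (Pdyn) was called lower with thresholds doubled and with wells grouped without regard to Ppy (0 to 1 over plates left out). Over Ppy-only wells 7 were higher with no filter on low counts. In Sst+Ins over Ins-only wells 3 were higher at 10% mitochondrial and by DESeq2 and 8 with no filter. Pdyn there was -0.075 with thresholds doubled, -0.033 at 10% mitochondrial, -0.0020 with hormone-free counts, -0.12 with no filter and -0.27 to 0.19 over plates left out. In Sst+Ins over Sst-only wells 4 were lower with thresholds halved and 3 at 10% mitochondrial, and 0 to 1 were higher over plates left out. In Sst+Gcg over Gcg-only wells 3 were higher with thresholds halved, with thresholds doubled and without regard to Ppy, and 2 at 10% mitochondrial and by DESeq2.

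For ppx over sham, 0 to 1 members were lower in Sst-only wells over plates left out, and in Ins-only wells 2 were lower with thresholds halved and 0 to 2 over plates left out. Sst in Ins-only wells was -1.23 with thresholds halved, -0.52 with the replicate block, -0.079 with tomato status as covariate and -2.23 to 1.44 over plates left out. Rbp4 was 0.51 by DESeq2, 0.022 without regard to Ppy and -2.98 to 0.82 over plates left out. Sst in Sst wells was -0.85 at 10% mitochondrial, -0.12 with no filter, -0.061 with tomato status as covariate and -0.17 to 0.50 over plates left out. The share of Sst-high wells was -35.8 to 12.5 points over plates left out. The replicate block changed no call.

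For tomato-positive over negative plates, Ins-only wells had 2 members higher with thresholds halved, at 10% mitochondrial and with no filter, and 9 with thresholds doubled. Fam159b was -0.48 and Pdyn -0.27 with thresholds halved, and Pdyn -0.48 to 1.59 over plates left out. In Sst wells 0 members were lower with no filter and over all plates left out (Sst, which chose the wells, was the 1 called otherwise), and Rbp4 was 0.47 with no filter and -0.11 to 0.22 over plates left out. Rbp4 was seen in 85.7% of Sst-only wells at 500 and 99.95% at 2000 UMIs. The cause of these moves was not tested. Not fitted for want of plates were Sst-only over Ppy-only at 10% mitochondrial, Sst+Gcg over Gcg-only without sham replicates 1 and 2, ppx over sham in Sst-only wells with the block, with tomato status and without ppx replicate 1, tomato status in Sst-only wells, and tomato status in Sst wells at 10% mitochondrial. Depth limits Gap43, Dpp6, Efnb3 and Pdyn, which rest on few UMIs per plate.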
